A study of Drosophila melanogaster with 10 samples.

Results

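The 10 genes described here encode parts of the intraflagellar transport machinery of Drosophila melanogaster and the motor that returns it to the base of the cilium. They are Oseg1, Oseg2, Oseg4, Oseg5, Oseg6, nompB, rempA, osm-6, che-13 and btv. Of them, 8 were found under these symbols as the only gene of a probe set. The other 2 were found under their current symbols, osm-6 as IFT52 and che-13 as IFT57, so 10 of the 11983 genes measured belong to the group. Each had 1 probe set of its own, and the choice of the brightest probe set therefore changed nothing for them.

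Intraflagellar transport carries building blocks along the microtubules of a growing cilium. Complex B moves toward the tip with a kinesin of the heterotrimeric class, and complex A takes part in the return, which a cytoplasmic dynein of its own drives. In flies the ciliated cells that use this transport are the sensory neurons of hearing, touch, smell and taste organs. Sperm flagella in flies are built without it.

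The arrays measured total RNA of fluorescent cells sorted from cultures begun by dissociating embryos at early gastrulation, before neurons had formed, and kept at 25 °C for 5 to 7 days per the sample names and 5 to 8 days per the growth protocol. The adults that laid the embryos were 2 weeks old. In the 5 samples called Cha here, the strain was 7.4 kb Cha-Gal:UAS-GFP, in which DNA of the choline acetyltransferase locus switches on green fluorescent protein through Gal4. In the 5 samples called Gad here, it was 2.1 kb Gad1(s)-RFP, in which DNA of the glutamate decarboxylase gene drives red fluorescent protein. No array of unsorted or unmarked cells was used here, and the labels do not say whether the samples came from separate cultures, so p-values describe the scatter among these arrays alone, which could be technical. In such bulk samples, fewer cells of a type and less RNA per cell cannot be told apart.

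Arrays correlated over all probe sets at r = 0.971 to 0.990 within Cha, 0.989 to 0.997 within Gad and 0.954 to 0.983 between the groups. The gene behind each reporter did not separate the groups: ChAT differed by 0.68 on the log2 scale toward Cha (limma adjusted p = 0.067) and Gad1 by 0.12, also toward Cha (adjusted p = 0.626). Group names below are therefore those of the labels. Of all genes, 18.5% passed the threshold of adjusted p = 0.05, 8.21% higher in Cha and 10.2% higher in Gad. The gap between the 3′ and 5′ probe sets of a control is a sign of RNA quality. With GAPDH, the gap was 2.91 ± 0.38 in Cha and 3.41 ± 0.19 in Gad (SD, n = 5, exact permutation p = 0.0317, 0.0952 adjusted over 3 controls). No single direction was shared by these controls. The gap of eIF4a was larger in Cha, at 5.25 against 4.98 in Gad (unadjusted exact p = 0.214). Actin gave nearly equal gaps of 5.47 in Cha and 5.48 in Gad (unadjusted exact p = 0.984). The part of RNA quality in the results was not tested.

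Of the 10 transport genes, 2 were higher in Gad, 0 in Cha, and 8 did not pass. Both that passed, Oseg4 and rempA, belong to complex A. With 18.5% of all genes called, 2 of 10 is near the background. The median difference of the 10 genes, as Cha minus Gad, was 0.08 against 0.04 over all genes, with 6 positive and 4 negative. Of the 10, 3 had an unadjusted limma p under the threshold, all of them toward Gad. Of all 11983 genes, 1832 had such a p toward Gad and 1977 toward Cha, so 3 of 10 is also near the background. The direction of the 3 was not tested. Of the 10 genes, 7 were above percentile 40 on every array. The remaining 3, nompB, IFT57 and btv, were at or under that level on every array, as 20.5% of all genes were. That level lay between 4.75 and 4.84 on the 10 arrays.

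**Figure D1:**
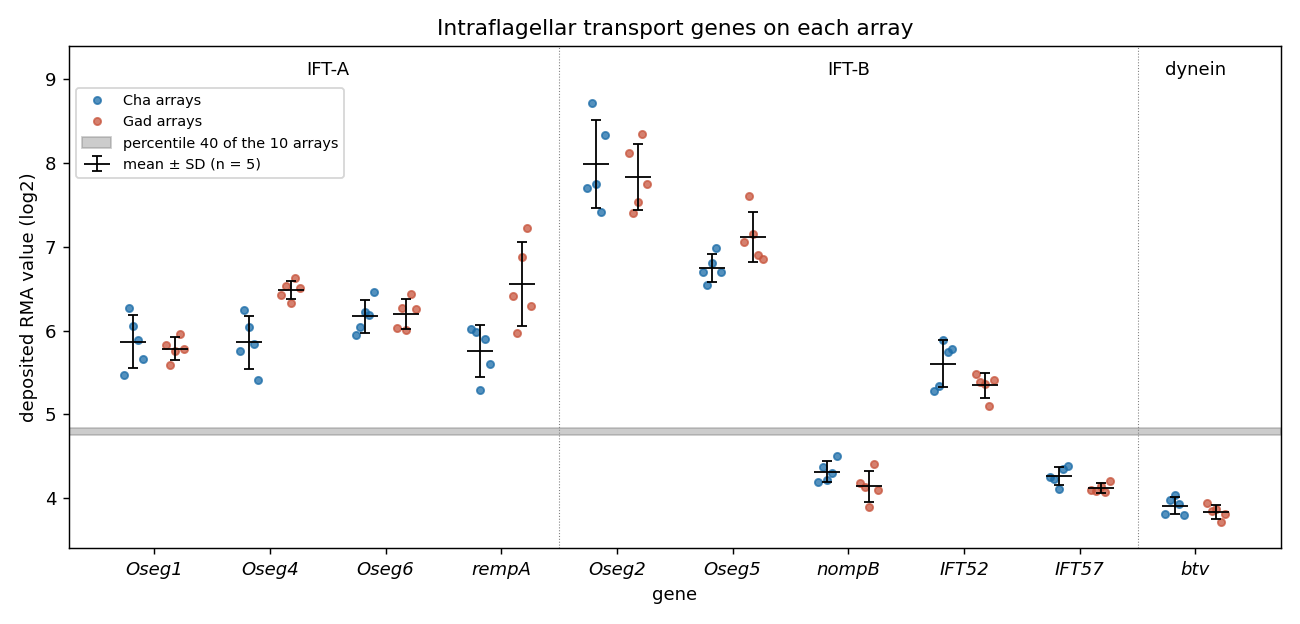
Deposited log2 values (vertical axis) of the 10 genes on each of the 5 Cha and 5 Gad arrays, grouped by complex, with mean and SD per group and a grey band for percentile 40 of the arrays. The Cha and Gad points of Oseg4 do not overlap, while nompB, IFT57 and btv lie below the band on every array.

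Complex A was represented by 4 genes. Oseg4 encodes the fly counterpart of WDR35, also called IFT121, a subunit with WD repeats. Its log2 values in Cha replicates 1 to 5 were 5.76, 6.25, 6.04, 5.84 and 5.41, and in Gad replicates 1 to 5 they were 6.43, 6.53, 6.33, 6.63 and 6.50. Every Gad array lay above every Cha array, and the Gad values were the tighter, with an SD of 0.11 against 0.31. The groups did not overlap in 13.5% of all genes, in 7.6% with the higher level in Gad and in 5.93% with the higher level in Cha. Oseg4 was 1.54-fold higher in Gad (difference -0.62, SE 0.14, 95% interval -0.94 to -0.31, limma adjusted p = 0.0137). The exact permutation p of 0.00794 is the smallest that 5 against 5 arrays can give. Its call held in each of the 10 fits without 1 array, with adjusted p from 0.00782 to 0.0341.

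rempA encodes the counterpart of IFT140, and flies that lack it have reduced mechanoreceptor potentials. Its values were 6.02, 5.99, 5.29, 5.89 and 5.60 in Cha replicates 1 to 5 and 6.41, 5.97, 6.88, 7.23 and 6.29 in Gad replicates 1 to 5. Gad replicate 2 fell inside the Cha range, and the other 4 Gad arrays lay above all Cha arrays. rempA was 1.74-fold higher in Gad (difference -0.80, SE 0.23, interval -1.31 to -0.28, adjusted p = 0.0367, exact p = 0.0238). The call ended in 7 of the 10 fits without 1 array, namely those lacking Cha replicate 2, 3 or 5, or any Gad array but replicate 2, with adjusted p up to 0.0943. The difference stayed between -0.94 and -0.63 in these 10 fits.

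Oseg1, the counterpart of IFT122, ran from 5.47 to 6.26 in Cha, with a median of 5.89, and from 5.58 to 5.96 in Gad, with a median of 5.78. The Gad values lay inside the Cha range. The difference was 0.08 (interval -0.24 to 0.41, adjusted p = 0.739). Oseg6, the counterpart of WDR19 or IFT144, ran from 5.95 to 6.46 in Cha and from 6.004 to 6.434 in Gad. Its difference was -0.03 (interval -0.29 to 0.24, adjusted p = 0.913). For both genes, the intervals bound any difference to under 0.5 on the log2 scale in either direction. Within complex A, 2 genes thus passed and 2 did not, and differences among the 4 were not tested.

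Complex B was represented by 5 genes, of which 0 passed in either direction by limma, with 1, Oseg5, at an unadjusted p under the threshold. Oseg5, the counterpart of IFT80, had values of 6.70, 6.54, 6.80, 6.99 and 6.69 in Cha replicates 1 to 5 and of 7.05, 7.61, 7.16, 6.91 and 6.85 in Gad replicates 1 to 5. The groups overlapped through Cha replicate 4, which lay above Gad replicates 4 and 5. The difference was -0.37 (SE 0.15, interval -0.69 to -0.05, unadjusted p = 0.029, adjusted p = 0.108). The exact permutation p, not adjusted for the number of genes, was 0.0317.

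Oseg2, the counterpart of IFT172, was the most variable of the 10 genes in Cha by its SD. Its values were 7.70, 8.72, 7.76, 7.42 and 8.34 in Cha replicates 1 to 5 and 8.12, 7.41, 7.53, 8.35 and 7.75 in Gad replicates 1 to 5. High and low arrays occurred in both groups, and the SD of 0.53 in Cha and 0.40 in Gad exceeded the median SD over genes of 0.25 and 0.17. The difference of 0.15 had an interval from -0.42 to 0.73 (adjusted p = 0.73), so these arrays cannot tell a difference within that range from none. IFT52, a core subunit, was at 5.28, 5.34, 5.88, 5.75 and 5.78 in Cha replicates 1 to 5 and at 5.49, 5.39, 5.36, 5.09 and 5.41 in Gad replicates 1 to 5. Of the Cha arrays, 3 lay above all Gad arrays and 2 lay within the Gad range. The difference was 0.26 (interval -0.04 to 0.56, adjusted p = 0.224).

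The other 2 genes of complex B were dim. nompB, the counterpart of IFT88, whose loss abolishes mechanoreceptor potentials in fly bristles, ran from 4.20 to 4.50 in Cha and from 3.89 to 4.41 in Gad. It differed by 0.17 (interval -0.06 to 0.41, adjusted p = 0.299). IFT57 ran from 4.11 to 4.38 in Cha and from 4.07 to 4.20 in Gad. Its difference of 0.14 did not pass by limma (interval -0.04 to 0.32, adjusted p = 0.258), while the unadjusted exact permutation p was 0.0317. Both genes lay under percentile 40 of the array on all 10 arrays.

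btv encodes the heavy chain of the dynein that moves intraflagellar transport back to the ciliary base, and flies mutant for it have impaired hearing. Its values were 3.81, 3.98, 4.04, 3.92 and 3.79 in Cha replicates 1 to 5 and 3.94, 3.85, 3.87, 3.72 and 3.81 in Gad replicates 1 to 5. The groups overlapped in part, at levels below percentile 40 on each array. Cha replicates 2 and 3 lay above all Gad arrays, and Gad replicate 4 lay below all Cha arrays. The difference was 0.07 (interval -0.11 to 0.26, adjusted p = 0.593).

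**Figure D2:**
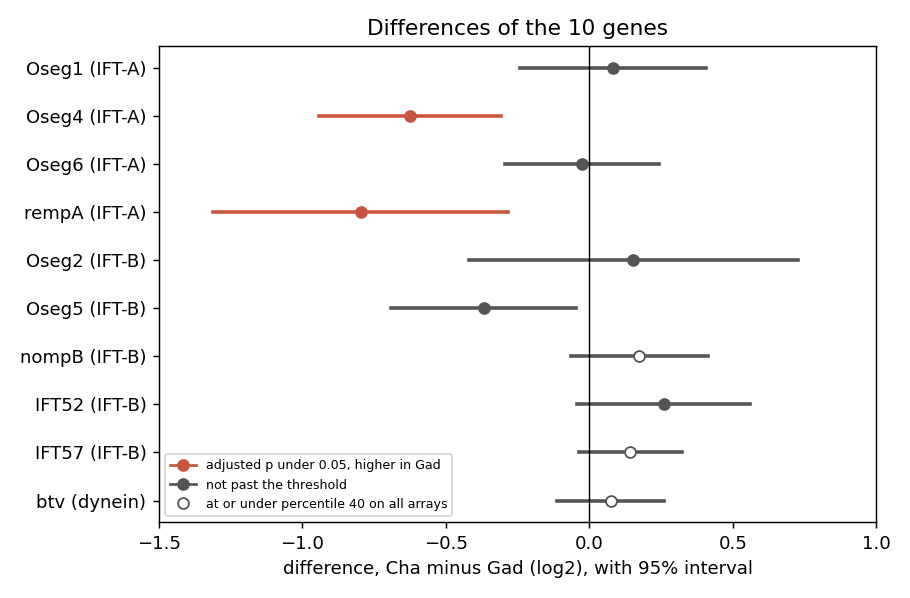
Differences of the 10 genes as Cha minus Gad on the log2 scale (horizontal axis), with 95% intervals from the limma fit. Oseg4 at -0.62 and rempA at -0.80 passed the threshold, the interval of Oseg5 ends at -0.05, and open points mark the 3 genes that were dim on all arrays.

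Of the 10 intervals, 9 lay within a difference of 1 on the log2 scale in either direction, the exception being rempA, and 5 lay within 0.5. Those within 0.5 were of Oseg1, Oseg6 and the dim genes nompB, IFT57 and btv. For the dim genes a narrow interval does not show that RNA levels were alike. The SD was larger in Cha than in Gad for 7 of the 10 genes, as for 76.1% of all genes. Gad replicate 4 had the highest value of its group for 6 of the 10 genes and the lowest for 3 others, so it stood at an edge of the group for 9 of 10. Of all genes, 8.81% had a difference at or below that of Oseg4 and 6.27% at or below that of rempA.

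**Figure D3:**
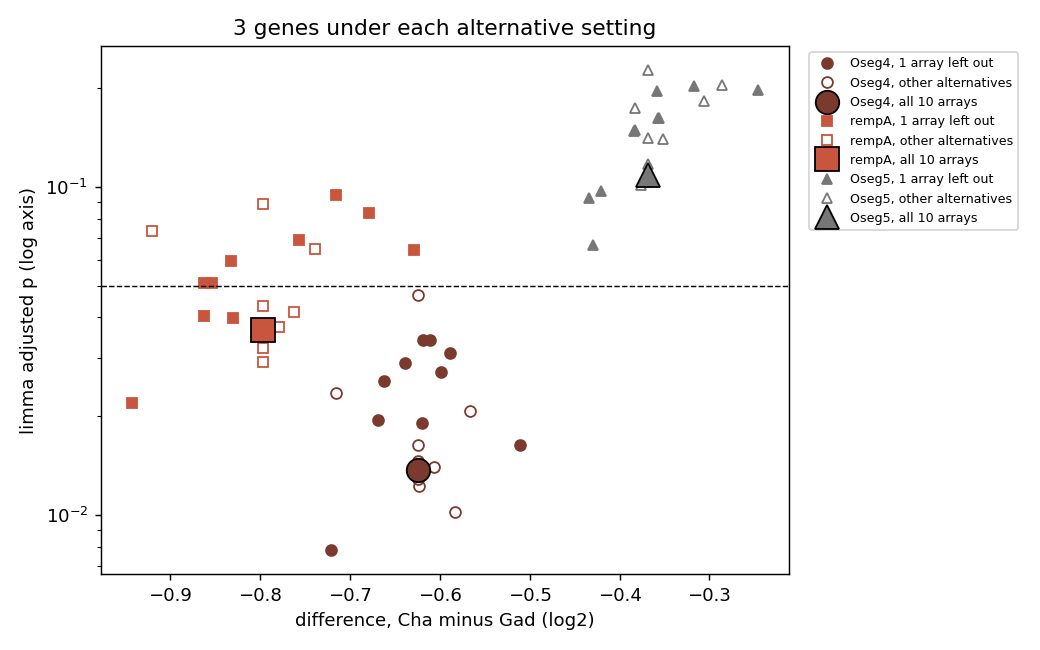
Limma adjusted p (vertical log axis, dashed line at 0.05) against the difference, Cha minus Gad (log2), for Oseg4, rempA and Oseg5 with all 10 arrays, with 1 array left out and under the other alternatives. Oseg4 stayed below the line, rempA crossed it without several single arrays, and Oseg5 stayed above it.

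The genes whose profile over the 10 arrays, centred on its own mean, came closest to that of Oseg4 were WDR79, Idh3b, which encodes a subunit of the citric acid cycle enzyme isocitrate dehydrogenase, and Hacl. Their root mean square differences from it were 0.13, 0.14 and 0.14 on the log2 scale. The profile holds the difference between the groups, so genes chosen this way share its direction by construction, and their differences of -0.55, -0.65 and -0.49 are a description. For rempA the closest were CG1344, Amun and shg, the fly E-cadherin gene, at 0.26, 0.27 and 0.28. These genes, chosen in the same way, differed by -0.94, -0.46 and -0.59.

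The rest of the transport machinery was read from a list of 14 further subunits and motors, of which 8 were measured. Of these, 2 were higher in Cha and 0 in Gad (unadjusted, 1 toward Gad), with a median of 0.04. Both that passed are subunits of the heterotrimeric kinesin, which drives outward ciliary transport and, in fly axons, is also known to carry choline acetyltransferase. Kap3, its accessory subunit, was at 10.06, 10.49, 9.76, 9.68 and 10.44 in Cha replicates 1 to 5 and at 9.01, 8.18, 8.53, 9.12 and 8.70 in Gad replicates 1 to 5. All Cha arrays lay above all Gad arrays, and Kap3 was 2.60-fold higher in Cha (difference 1.38, SE 0.21, adjusted p = 0.00206). Klp68D, a motor subunit, was 1.48-fold higher in Cha (difference 0.57, SE 0.15, adjusted p = 0.0228). Its groups overlapped, and leaving out Cha replicate 2 or any of Gad replicates 1, 2 and 3 removed the call (adjusted p up to 0.0631). The list also held 1 call without the pair of arrays that share a letter in their descriptions. The other motor subunit, Klp64D, was not analysed here.

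The 6 other genes of that list did not pass. IFT43, a subunit of complex A, stood at 6.75 in both groups (adjusted p = 0.998). IFT54 differed by -0.41 (adjusted p = 0.0993) and IFT20 by 0.07 with an SD of 0.97 in Cha. IFT46, Ttc30 and CG3769, listed as the counterpart of the light intermediate chain of the ciliary dynein, were dim on all arrays, as btv was.

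Motors of general axonal transport were set beside these. Of 7 measured of 10, 3 were higher in Cha and 0 in Gad (unadjusted, 0 toward Gad), with a median of 0.31. They were unc-104, the kinesin of synaptic vesicle precursors (0.75, adjusted p = 0.018), Klc, the kinesin light chain (0.31, adjusted p = 0.032), and Dhc64C, the heavy chain of the dynein used throughout the cell (0.43, adjusted p = 0.0435). The call of Klc ended in 7 of the 10 fits without 1 array and that of Dhc64C in 8, and other probe sets of Dhc64C, both dim, gave 0.06 and -0.06. The list held 1 call when any array other than Cha replicates 1, 3 and 4 and Gad replicate 4 was left out, 1 with cyclic loess or with a trended and robust prior, and 0 without the pair of arrays that carry the letter K in their descriptions. In the same direction, 6 of 8 pan-neuronal genes passed toward Cha and 0 toward Gad (unadjusted, 0 toward Gad). They were led by Syn for synapsin (1.75), the sodium channel gene para (1.47) and futsch (1.30), with other probe sets of futsch at 0.09 and -0.04. The pan-neuronal genes brp and elav did not pass (limma adjusted p = 0.475 and 0.536). The count was 4 with the replicate number as a block, without the letter K pair or without Gad replicate 3. The mean log2 level of these 8 genes ran from 9.69 to 10.52 over the Cha arrays and from 8.44 to 9.63 over the Gad arrays. The part of this general difference in the values of Kap3 and Klp68D was not tested.

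The BBSome is a coat that carries membrane proteins in cilia, and small GTPases control traffic into them. In this list, 9 of 11 genes were measured, and 2 passed toward Cha and 1 toward Gad, with a median of 0.18. Arl6, the GTPase that recruits the BBSome to membranes, was at 6.70, 6.64, 6.90, 6.22 and 7.27 in Cha replicates 1 to 5 and at 5.89, 5.73, 5.50, 5.85 and 5.94 in Gad replicates 1 to 5. The groups did not overlap, and Arl6 was 1.95-fold higher in Cha (difference 0.96, SE 0.17, adjusted p = 0.0045). BBS9 was higher in Cha by 0.37 (adjusted p = 0.0133) at a level that was dim on all 10 arrays. Rab23 was higher in Gad (-0.50, adjusted p = 0.0246), a call that was lost when Cha replicate 3, Gad replicate 3, Gad replicate 5 or the letter K pair was left out. Of the 9, 4 were dim on every array, all of them BBSome subunits.

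The transition zone is the gate at the base of the cilium. Of 7 measured of 14 genes, 1 was higher in Gad and 0 in Cha (unadjusted, 1 toward Cha), with a median of 0.12. It was Cc2d2a, a component of the gate, at -0.62 (SE 0.15, adjusted p = 0.0155), with another, dim probe set at 0.04. The call ended when the probe sets were averaged, and also without the pair of arrays that carry the letter K. Cep290 differed by 0.15 (adjusted p = 0.577). Of 11 measured of 13 genes of the centriole, from which the cilium grows, 1 was higher in Gad and 0 in Cha (unadjusted, 2 toward Cha), with a median of -0.14. It was spd-2, which recruits pericentriolar material in dividing cells (-0.91, SE 0.18, adjusted p = 0.00594). The count toward Gad was 2 when Cha replicate 2, Cha replicate 5 or Gad replicate 3 was left out, and 1 gene passed toward Cha without Gad replicate 2. It was also 2 with cyclic loess or array weights, and 1 gene passed toward Cha with a second quantile normalization.

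Ciliogenic transcription factors and markers of ciliated sensory neurons gave no calls. Of 5 factor genes, 0 passed (unadjusted, 0 in either direction), with a median of 0.10. ato, the proneural factor of chordotonal organs, differed by 0.29 (adjusted p = 0.283), and Rfx, the factor known to switch on transport genes in fly sensory neurons, stood at 5.18 in Cha and 5.04 in Gad (adjusted p = 0.472). Of 9 sensory neuron markers, 0 passed (unadjusted, 1 toward Cha and 0 toward Gad). That 1 was Ir25a, a co-receptor of olfactory neurons, at 0.48 (adjusted p = 0.0614), and 1 marker passed toward Cha without Cha replicate 4, without Gad replicate 1 or with array weights. The channel genes nompC, iav and nan, which define mechanosensory cilia, were dim on all 10 arrays, as was Ir8a, and 2 of the 9 were above percentile 40 on every array. The mean level of the 9 ran from 4.73 to 5.11 over the Cha arrays and from 4.74 to 4.92 over the Gad arrays.

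Of 6 measured of 7 genes of sensory organ precursors and support cells, 1 was higher in Cha and 0 in Gad (unadjusted, 0 toward Gad), with a median of -0.06. It was sv, a Pax factor of sensory organ cells, at 0.38 (adjusted p = 0.0301) and dim on all arrays. Its call was lost when Cha replicate 2, Cha replicate 5, Gad replicate 1 or Gad replicate 2 was left out, and also with cyclic loess, a second quantile normalization, array weights or without the letter K pair. Of 11 genes listed for axonemal motility, 1 was higher in Cha and 0 in Gad (unadjusted, 0 toward Gad), with a median of 0.02. It was nom (0.74, adjusted p = 0.006), which had been listed by its symbol and for which no axonemal role is claimed here. Without it 0 of 10 passed (unadjusted, 1 toward Cha and 0 toward Gad). Without Cha replicate 5, or with array weights, 2 of the 11 passed toward Cha. Of 11 spermatocyte genes, which mark the other fly lineage with axonemes, 1 was higher in Cha and 0 in Gad (unadjusted, 0 toward Gad), the testis tubulin gene betaTub85D (1.07, adjusted p = 0.006), and 8 were dim on all arrays.

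**Figure D4:**
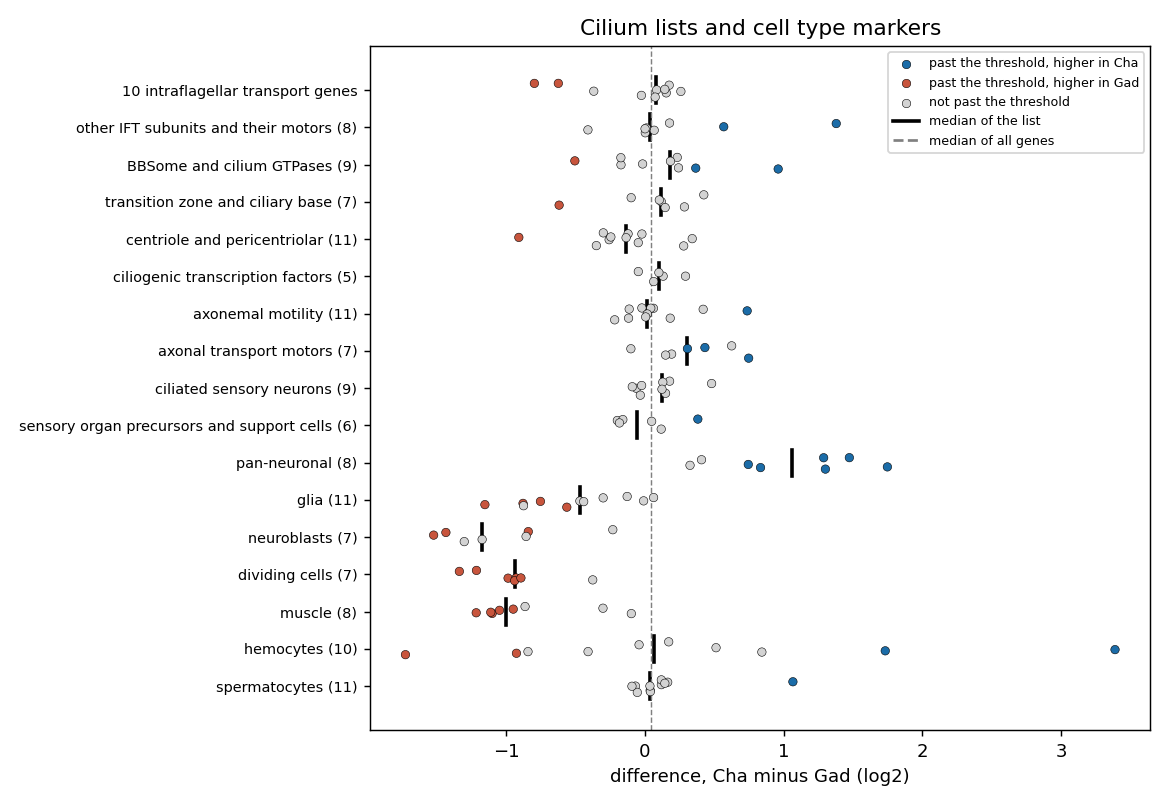
Differences as Cha minus Gad (log2, horizontal axis) of each gene of the 10 transport genes and of the 16 lists, with the number of genes measured in parentheses, coloured by call, with the median of each list and of all genes. The cilium lists centre near the median of all genes, the pan-neuronal list lies to the right of it, and the glia, neuroblast, dividing cell and muscle lists lie to its left.

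Of the lists for other cell types, those of glia, neuroblasts, dividing cells and muscle had calls toward Gad, the direction of Oseg4 and rempA, and 0 toward Cha, while the hemocyte list had calls in both directions and the 1 spermatocyte call was toward Cha. In the glial list of 11, 4 passed toward Gad and 0 toward Cha (unadjusted, 0 toward Cha), with a median of -0.47, among them Cyp4g15 (-1.15), the engulfment receptor gene drpr (-0.75) and loco (-0.56). The mean level of the glial list ran from 7.89 to 8.29 over the Cha arrays and from 8.45 to 8.67 over the Gad arrays, and 1 glial gene was dim on all arrays. In the neuroblast list of 7, 3 passed toward Gad and 0 toward Cha (unadjusted, 0 toward Cha), with a median of -1.17, namely grh (-1.52, with another, dim probe set at 0.11), mira (-1.43) and pon (-0.84). This list had 6 calls without Cha replicate 3 or with array weights, 5 without Cha replicate 4 and 1 without the pair of arrays that carry the letter K. That list had a mean level of 7.52 to 8.84 in Cha and of 8.96 to 9.59 in Gad.

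Of 7 genes of dividing cells, 6 were higher in Gad and 0 in Cha (unadjusted, 0 toward Cha), with a median of -0.94, among them CycB3 (-0.99), ncd (-0.94) and cid (-0.93). The last of these, cid, was dim on all 5 Cha arrays and on 0 Gad arrays. The count for dividing cells was 4 without the letter K pair and 5 with the replicate number as a block. The mean level of the 7 genes ran from 6.63 to 7.61 in Cha and from 8.03 to 8.23 in Gad. In the muscle list of 8, 5 passed toward Gad and 0 toward Cha (unadjusted, 0 toward Cha), with a median of -0.998, among them Prm (-1.22), Mlc2 (-1.10) and Act87E (-0.95), whose call ended in 6 of the 10 fits without 1 array. The muscle count fell to 2 when Cha replicate 1, 3 or 5, or Gad replicate 3, 4 or 5, was left out, and to 3 without Gad replicate 1. It was also 3 without the letter K pair. Their mean level ran from 6.39 to 7.63 in Cha and from 7.35 to 8.15 in Gad. Of the neuroblast, dividing cell and muscle genes, 0 were dim on all arrays. In the hemocyte list of 10, PPO1 (3.39) and PPO2 (1.73) passed toward Cha and 2 genes toward Gad, srp having the larger difference (-1.73), with a median of 0.06. The mean level of the hemocyte list was 7.48 to 8.35 in Cha and 7.20 to 7.75 in Gad. The part of these cell types in the values of Oseg4, rempA, Cc2d2a and spd-2 was not tested.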

How the data were processed

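Fluorescent cells sorted from embryo-cell cultures were measured on 10 expression arrays. The authors deposited expression on a log2 scale; the submitters' processing notes name RMA, its version being not given in the sources used here. This method removes background, brings the arrays to a common distribution and summarises each probe set, so a shift shared by most genes is removed. Array medians lay between 5.68 and 5.75.

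Of 18952 probe sets, 183 controls were left out. Of the other 18769, 13647 had 1 symbol in the platform annotation, 402 several and 4720 none. The brightest probe set by mean stood for each of 11983 genes. Groups were compared with limma 3.58.1 in R 4.3.3 (lmFit, eBayes, 2-sided, no covariates), adjusted by Benjamini-Hochberg over all genes, threshold 0.05. On simulated data this fit recovered 36.9% of 65 seeded log2 differences of 0.5. It recovered 80.9% of 68 differences of 1 and 100% of 67 differences of 2, and 1.35% of its calls were false. The simulation held fewer changed genes than the 2212 called here. It drew independent noise with the same SD in both groups, while 76.1% of the measured genes had a larger SD in Cha. Its rates therefore need not hold for these arrays. Exact permutation tests over 5 against 5 arrays cannot give a p below 0.00794. A probe set at or under percentile 40 of its array is called dim. No detection call was used here.

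The members and the 16 lists were chosen with earlier results of these data known. Named were all members, ChAT and Gad1, and up to 3 called genes of each list by smallest p, or 1 where none passed. The labels do not say whether the replicate numbers in the titles pair the arrays, and the main fit did not pair them. The correlation of same-numbered deviations from the group means ran from -0.4 to 0.0346. Differently numbered arrays were not correlated in this way, so these values do not settle whether the numbers pair the arrays. The alternatives are second quantile normalization, cyclic loess, median centring, removal of dim probe sets, array weights, a robust prior with a trend, leaving out arrays, the replicate block, probe set means, a stricter threshold and the exact test. A fit on all probe sets and a list without nom were added after the data were seen.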

Additional observations from a re-analysis of the deposited data

Results flagged for a closer look

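No array stood apart from the others of its group for any of the 10 transport genes by Dixon's criterion at 95% (a gap above 0.71 of the range of 5 arrays). Among all 90 sets of 5 values screened, chance flags about 1 in 20, and 7 were flagged, all for genes of the other lists. In Cha these were Cc2d2a in replicate 3 (5.29, others 5.85 to 6.01), unc-104 in replicate 4 (12.04, others 12.57 to 12.75) and PPO2 in replicate 4 (10.50, others 9.15 to 9.51). In Gad they were Klc in replicate 1 (10.69, others 10.90 to 10.96), Dhc64C in replicate 3 (10.14, others 10.37 to 10.43), grh in replicate 2 (9.43, others 10.34 to 10.68) and mira in replicate 1 (10.82, others 9.97 to 10.18).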

How the results depend on the processing

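The count of transport genes higher in Cha was 0 under every alternative run. The count past the threshold, all higher in Gad, was 2 with all arrays and 1 with array weights, with the replicate number as a block and without Cha replicate 2 and Gad replicate 5 together, whose descriptions carry the same letter. It was 0 with a threshold of 0.01, and 1 to 2 in the fits without 1 array. Oseg4 kept its call except at 0.01 (adjusted p = 0.0137), and its adjusted p was highest, 0.0468, with the replicate block. rempA lost its call with array weights (adjusted p = 0.0648), the replicate block (0.0889) and without that pair of arrays (0.0732). Oseg5 and IFT57 passed by the exact test (p = 0.0317 for each), which was not adjusted for the number of genes. For Oseg5 the unadjusted limma p was similar, at 0.029, so its limma result missed the threshold only after adjustment. For IFT57 the unadjusted limma p was 0.107, and the cause of this gap was not tested. Without that pair, the differences of Oseg1, Oseg6 and Oseg2 changed sign to -0.0147, 0.0222 and -0.0486, and that of Oseg6 to 0.0287 with a second quantile normalization; none of these passed. Without 1 array, Oseg1 ran from -0.015 to 0.184, Oseg6 from -0.0968 to 0.0339 and Oseg2 from -0.0285 to 0.295.

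Over all genes, 2212 passed. The counts were 1113 with the replicate block (352 higher in Cha, 761 in Gad), 1055 without that pair of arrays (382 and 673) and 870 at a threshold of 0.01 (304 and 566). In the fits without 1 array they ran from 1377 to 2614, with 525 to 1252 higher in Cha and 852 to 1362 higher in Gad. The lowest was without Gad replicate 3. The number of arrays limits the precision. nompB, IFT57 and btv had SEs of 0.108, 0.082 and 0.084 at a signal in the dim range. At such a signal a small SE does not show that RNA levels were alike. With the replicate block, the list counts that changed included 1 toward Cha among the further subunits and motors, 1 toward Cha and 0 toward Gad in the BBSome list, 0 among axonal motors and support cells, and 2 toward Gad each for neuroblasts, where mira had an adjusted p of 0.0552, and for muscle.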
